A study of Mus musculus with 2 samples.

Results

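The cells described here are fibroblasts that carried little or no Postn and Cthrc1 RNA, found among CD45+ cells sorted from mouse heart after a sham operation or after transverse aortic constriction (TAC). They were selected on measured values. A barcode was kept when it held 300 genes or more and when no more than 10% of its unique molecular identifiers (UMIs) were mitochondrial. Of these, a barcode belonged to the population when, per 10000 UMIs, Col1a1, Col3a1 and Dcn summed to at least 20, C1qa, C1qb and C1qc to at most 20, and Postn and Cthrc1 to under 5. The rule found 308 of 9770 kept cells, 179 in the sham library and 129 in the TAC library.

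Both groups are wild-type C57BL/6 mice aged 10 weeks, and each is 1 library from a group of 6 mice, whose cells carry no mark of the animal. TAC narrows the aorta and raises the pressure against which the left ventricle pumps, while a sham operation leaves the vessel open. The labels used here do not state how long after surgery the hearts were taken. With 1 library per group there is no test across samples, the library and the condition cannot be told apart, and every interval below covers counting error only.

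Fibroblasts build and renew the collagen network of the heart. Cardiac fibroblasts of the unstressed heart are known for Pdgfra, Tcf21, Dcn and Gsn, and in the pressure-loaded heart some of them turn to making scar matrix and then carry periostin (Postn) and Cthrc1. Interferons, which bind receptors on nearly all cells, raise guanylate-binding proteins (GBPs), immunity-related GTPases (IRGs) and the genes of antigen presentation in fibroblasts as in other cells.

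The label fits the markers. With UMIs summed over the gated cells of a library and given per 1000000 UMIs (CPM), Dcn, a small collagen-binding proteoglycan, stood at 17881 in sham and 17035 in TAC, and Col3a1 at 1719 and 1441. Both are genes of the rule, so these values are a description. Pdgfra, the receptor for platelet-derived growth factor, is not in the rule and had a UMI in 86.6% of gated cells in sham and 86.0% in TAC. After thinning each cell to 2000 UMIs, Pdgfra was seen in 51.7% and 37.5% of these cells and in 0% and 0.1% of 999 C1q-rich cells per library, which had medians of 9397 and 15344 UMIs before thinning. Gsn, the actin-severing protein gelsolin, had a UMI in 97.8% and 99.2% of the cells. Ptprc, which encodes CD45 and is the marker of the sort, had a UMI in only 10 of 179 sham and 11 of 129 TAC cells (5.59% and 8.53%), against 91.4% and 90.6% of the other kept cells outside the fibroblast rule.

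The libraries differed in depth and in mitochondrial share within this population. Gated sham cells had a median of 8437 UMIs and 7.68% mitochondrial UMIs, and gated TAC cells 12073 UMIs and 3.78%. In all, 1563100 and 1635845 UMIs were summed. The libraries shared 35 barcode sequences, of which 1 belonged to a gated TAC cell and 0 were gated in both. No doublet caller was run here. Of the gated cells, 15 in sham and 6 in TAC carried high levels of genes of another cell type, and 1 sham barcode held 98.6% of the 5939 haemoglobin UMIs. Values without these mixed cells are mostly given where they differ in direction or by over 1.5 times. They were left out by limits set after the data were seen.

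Fibroblasts low in Postn and Cthrc1 were 4.29% of kept cells in sham (95% Clopper-Pearson interval 3.70 to 4.95) and 2.30% in TAC (1.93 to 2.73), a 1.86-fold lower share (1.48 to 2.36). Fibroblasts at or above the Postn and Cthrc1 limit went the other way, from 11 to 99 cells, or from 0.264% to 1.77%. The low cells were thus 94.2% of all gated fibroblasts in sham (89.9 to 97.1) and 56.6% in TAC (49.9 to 63.1). These shares follow from the rule and from a sort for another cell type, and a share of kept cells also moves with the number of other cells caught. Without the limit on Postn and Cthrc1 the log2 ratio of the fibroblast share was -0.16 in place of -0.90. Fewer cells of this kind and more Postn or Cthrc1 RNA per cell, which takes a cell over the limit, cannot be told apart by a share.

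The Postn and Cthrc1 limit cut through a gap in sham and through a continuum in TAC. In sham, 168 of 179 cells had no UMI of either gene, the 3 highest cells inside the limit had 2.45, 2.41 and 1.84 per 10000, and the 3 lowest outside had 8.15, 11.5 and 15.4. In TAC, 83 of 129 cells had none, the 3 highest inside had 4.96, 4.91 and 4.90, and the 3 lowest outside had 5.03, 5.28 and 5.39. In TAC 25 cells lay between 2.5 and 5, and in sham 0. At the collagen limit, 3 sham cells and 1 TAC cell lay between 20 and 40, and 2 and 1 cells that met the rest of the rule lay between 10 and 20. At the C1q limit, 0 sham and 4 TAC cells inside had at least 10, and 4 and 1 cells outside had over 20 and up to 40.

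**Figure D1:**
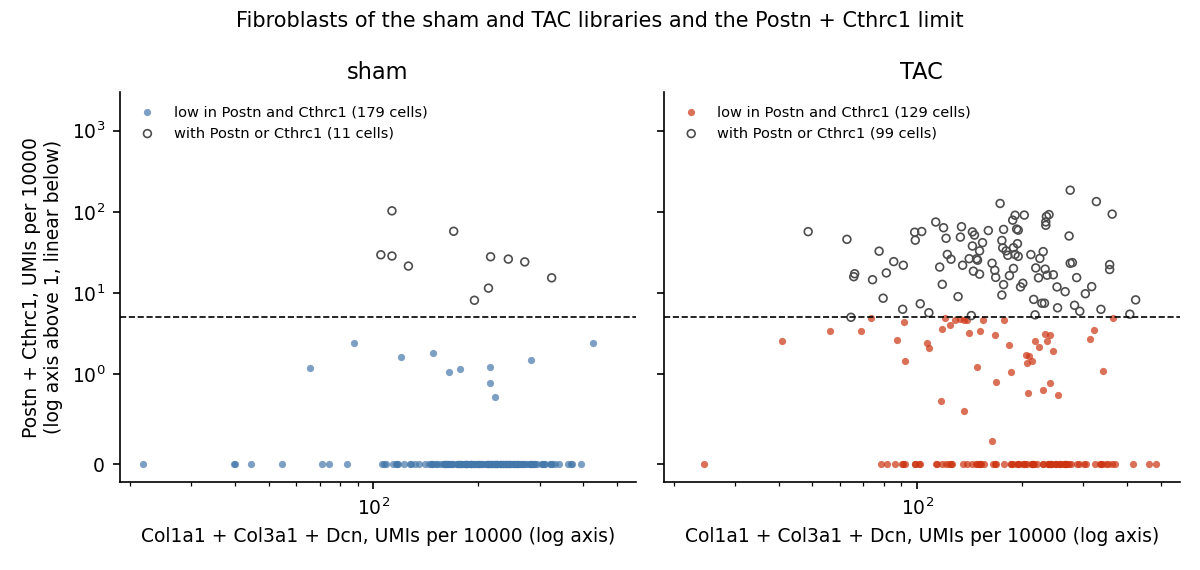
Each point is 1 fibroblast of the sham (left, blue) or TAC (right, red) library, with the summed UMIs of Col1a1, Col3a1 and Dcn per 10000 on the x axis (log) and those of Postn and Cthrc1 on the y axis (log above 1, linear below). Filled points under the dashed line at 5 are the 179 sham and 129 TAC cells described here, open circles are the 11 and 99 cells above it, and only the TAC library has cells close to the line on both sides.

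Genes with at least 50 UMIs over both libraries were compared in CPM, and a ratio of at least 1.5 was counted. Of 6472 genes, 576 (8.90%) passed it in the direction of TAC and 752 (11.6%) in the direction of sham, and the median log2 ratio was -0.03. Every list count below is to be read against these shares. The 12 highest ratios were mostly those of interferon-inducible genes, and the 12 lowest included a chemokine, a collagen, a heat-shock gene and a lipid gene.

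Igtp, an IRG that acts at the vacuoles of intracellular parasites, stood at 9.60 CPM in sham and 438 in TAC, 45.7-fold higher (27.5 to 82.0). Iigp1, another IRG, went from 27.5 to 1075 CPM (39.1-fold, 28.9 to 54.2). Gbp4 had 3 UMIs in sham and 191 in TAC, or 1.92 and 117 CPM, a ratio of 60.8 (20.5 to 298). Each of these was spread over cells: a UMI was found in 12 sham and 107 TAC cells for Igtp, 27 and 103 for Iigp1, and 3 and 56 for Gbp4. Zbp1, a sensor of nucleic acids, was in 10 sham and 96 TAC cells, at 10.2 and 182 CPM. Tgtp2, an IRG with the near-identical copy Tgtp1 from which its reads may not be separable, had 2 and 145 UMIs, a ratio of 69.3 (18.8 to 577). Without mixed cells the ratios of Gbp4 and Tgtp2 were 160 and 119, each from 1 sham UMI (intervals 28.4 to 6365 and 21 to 4737).

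Cxcl9, a chemokine that draws T cells, had 1.28 and 94.1 CPM (73.6-fold, 20 to 613), the highest ratio among genes that reached 50 CPM, from 2 UMIs in sham. Without mixed cells its ratio of 87 (15.2 to 3471) was below those of Gbp4 and Tgtp2. It was less evenly spread than the GTPases: 21 TAC cells had a UMI, and 3 of them held 112 of 154 UMIs. Spp1 (osteopontin), at 2.56 and 99.6 CPM, rested on fewer still, with 157 of 163 TAC UMIs in 3 of 8 cells. Without each gene's 3 highest cells in each library Spp1 had 0 sham and 6 TAC UMIs, and without mixed cells its ratio was 18.5 in place of 38.9. Il18bp, the secreted inhibitor of interleukin 18, went from 1.92 to 65.4 CPM with UMIs in 3 and 59 cells. Serpina3f and Serpina3g, protease inhibitors of a family with near-identical members, were 34.9-fold (13.3 to 130) and 19.6-fold (7.37 to 73.6) higher. Batf2, a transcription factor, was 27.1-fold higher (8.96 to 134), and Fam26f 17.7-fold (7.87 to 49.2).

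Promoters of these interferon-inducible genes are shown because the genes moved together. Of the 12 genes with the highest ratios, only Cxcl9 and members of the interferon-related lists described below were looked up. The RefSeq promoter table used here (GRCm38.p6, which mm10 names) had an entry for 3 of those. The 250 bases before the start are given 5′ to 3′ on the gene's strand. Capitals mark matches on either strand to the interferon-stimulated response element core (GAAA, any 2 bases, GAAA) and to the gamma-activated site (TTC, any 3 bases, GAA).
Igtp, chr11:58199306-58199555, plus strand: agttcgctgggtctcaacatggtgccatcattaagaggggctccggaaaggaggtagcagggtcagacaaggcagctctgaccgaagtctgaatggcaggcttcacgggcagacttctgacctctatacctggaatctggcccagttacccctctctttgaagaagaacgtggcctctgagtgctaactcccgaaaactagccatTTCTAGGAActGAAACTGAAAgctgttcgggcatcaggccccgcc
Tgtp2, chr11:49064213-49064462, minus strand: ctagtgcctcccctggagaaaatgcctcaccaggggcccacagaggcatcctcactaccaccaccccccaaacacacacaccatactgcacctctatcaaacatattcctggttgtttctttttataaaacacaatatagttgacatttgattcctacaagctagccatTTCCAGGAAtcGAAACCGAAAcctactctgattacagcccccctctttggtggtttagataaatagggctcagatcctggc
Cxcl9, chr5:92328080-92328329, minus strand: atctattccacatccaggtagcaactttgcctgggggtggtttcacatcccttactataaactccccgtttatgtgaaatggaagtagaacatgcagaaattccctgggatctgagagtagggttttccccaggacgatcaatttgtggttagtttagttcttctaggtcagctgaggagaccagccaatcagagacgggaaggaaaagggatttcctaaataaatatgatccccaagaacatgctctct
Igtp and Tgtp2 each held 1 match to both motifs, side by side and not overlapping, with the response element core beginning 34 and 70 bases before the start and the gamma-activated site 45 and 81 bases before it. Cxcl9 held neither within this window, which says only that these letters are not there. Over all 32851 promoters of the table, 978 (2.98%) held the response element core and 2306 (7.02%) the gamma-activated site in the same window. Of the 15 GBP and IRG genes higher in TAC, 9 had an entry, and 8 of them held the core and 5 the gamma-activated site. A match is a description of letters and not of binding.

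**Figure D2:**
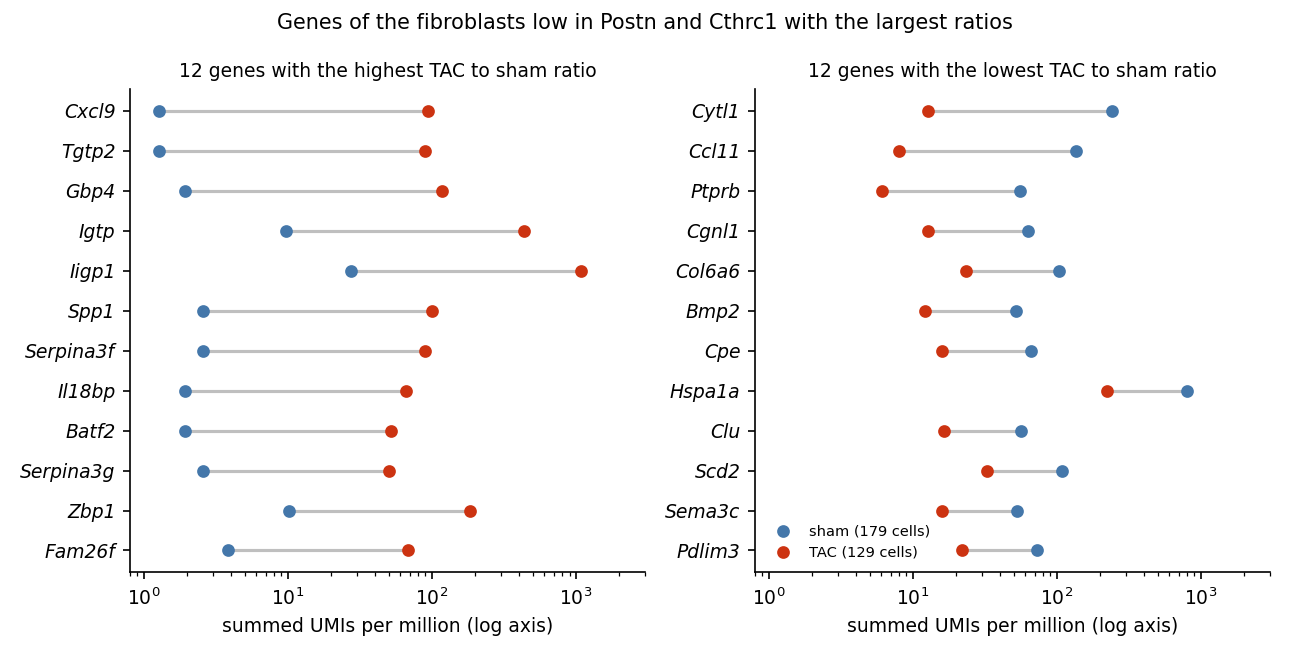
CPM (log axis) in the 179 sham (blue) and 129 TAC (red) fibroblasts low in Postn and Cthrc1, for the 12 genes with the highest (left) and the 12 with the lowest (right) TAC to sham ratio. Most genes on the left lie under 11 CPM in sham, with Iigp1 at 27.5, while most genes on the right are at 50 to 140 CPM in sham, with Hspa1a at 801 and Cytl1 at 239.

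The GBP and IRG list was higher in TAC as a whole. All 15 of its members with enough UMIs were past 1.5-fold, of 19 in the files, with a median log2 ratio of 3.89 against -0.03 for all genes. The other 4 members had too few UMIs to be compared. Gbp2, the most abundant GBP, stood at 57.6 and 878 CPM (15.3-fold, 12.3 to 19.1). The smallest ratios were those of Irgm1 (26.9 and 194 CPM, 7.23-fold), Gbp5 (13.4 and 110 CPM, 8.19-fold) and Gbp7 (40.3 and 364 CPM, 9.02-fold). Gbp10 had 0 UMIs in sham and 45.8 CPM in TAC. Set against a floor of 3 UMIs over all sham cells, that is at least 23.9-fold higher. Reads may be split between near-identical GBPs, so single members are less certain than the list.

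The antigen presentation genes of major histocompatibility complex (MHC) class I followed the same direction. Of 18 members compared, 17 were higher and 0 lower, and the median was 2.27 on the log2 scale. B2m, the light chain of class I molecules, went from 797 to 4007 CPM (5.03-fold, 4.73 to 5.35), and the heavy chains H2-K1 and H2-D1 from 590 to 2954 and from 816 to 4100 CPM. The highest ratios were those of H2-Q7 (19.2 and 263 CPM), H2-Q6 (8.96 and 99.0 CPM), both of a family of near-identical genes and 21.2-fold and 23-fold higher without mixed cells in place of 13.7-fold and 11.1-fold, and Tap1, which carries peptides into the endoplasmic reticulum (21.8 and 189 CPM, 8.68-fold, 6.08 to 12.8). Erap1, a peptide-trimming protease, was within 1.5-fold (35.2 and 47.7 CPM). Of MHC class II, the presentation system of professional antigen-presenting cells, 1 of 7 members compared was higher (Ctss, 35.2 and 81.3 CPM) and the median was -0.23. That median rested on a few cells, as 3 cells held 74.0% of the Cd74 UMIs in sham and 56.4% in TAC. Without each gene's 3 highest cells the median was 0.80 with 3 of 5 members higher, and it changed sign in 10 of 20 alternatives. Per cell, the list had medians of 1.37 and 3.89 per 10000, and 124 of 129 TAC cells were above the sham median. Cd74 had a UMI in 33.5% of sham and 86.8% of TAC cells, and in 12.4% and 32.0% after thinning, beside 78.3% and 94.5% of thinned C1q-rich cells, which are known to express it.

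Of 26 antiviral interferon genes compared, 24 were higher and 0 lower, and their median was 1.97 on the log2 scale. Ifitm3, a membrane protein that blocks virus entry, was the most abundant at 1818 and 4306 CPM (2.37-fold, 2.27 to 2.48), and had a UMI in every gated cell of both libraries. Rsad2 (viperin) went from 7.68 to 88.0 CPM, with 54.2% of its TAC UMIs in 3 of 28 cells, and Ifit3 from 40.3 to 318 CPM in 21 and 79 cells. The members within 1.5-fold were Ifi27 (321 and 249 CPM) and the RNA sensor Ddx58 (32.0 and 44.6 CPM).

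Among 16 interferon receptor and signalling genes, 8 were higher and 0 lower. Stat2 and Irf9, transcription factors of the type I interferon response, both stood at 28.1 and 92.3 CPM (3.28-fold, 2.33 to 4.70). The receptor chains moved less: Ifngr1 was at 328 and 402 CPM, Ifnar2 at 138 and 175, Ifnar1 at 27.5 and 25.1, and Ifngr2 at 33.3 and 50.7, past 1.5-fold with all cells and at a log2 ratio of 0.54 without mixed cells. Jak1, the kinase they share, was at 223 and 193 CPM, and Socs3, an inhibitor of the pathway, at 565 and 564. Socs1, another inhibitor, had 58 UMIs in 34 sham cells and 185 UMIs in 65 TAC cells.

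Cells of the TAC population differed widely in this load. The summed UMIs of the GBP and IRG list had a median of 1.24 per 10000 in sham cells, with 55 of 179 at 0 and a highest cell of 47.7. In TAC cells the median was 41.1, the 10th and 90th percentiles were 2.67 and 107, and 60 of 129 cells were above the highest sham cell. All but 2 of the 129 TAC cells were above the sham median, while the lowest had 0.699. The class I list had medians of 28.7 and 170, and 80 TAC cells were above the highest sham cell. A like load was seen on both sides of the Postn limit: the median of the GBP and IRG list was 53.7 in the 99 TAC fibroblasts with Postn or Cthrc1.

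**Figure D3:**
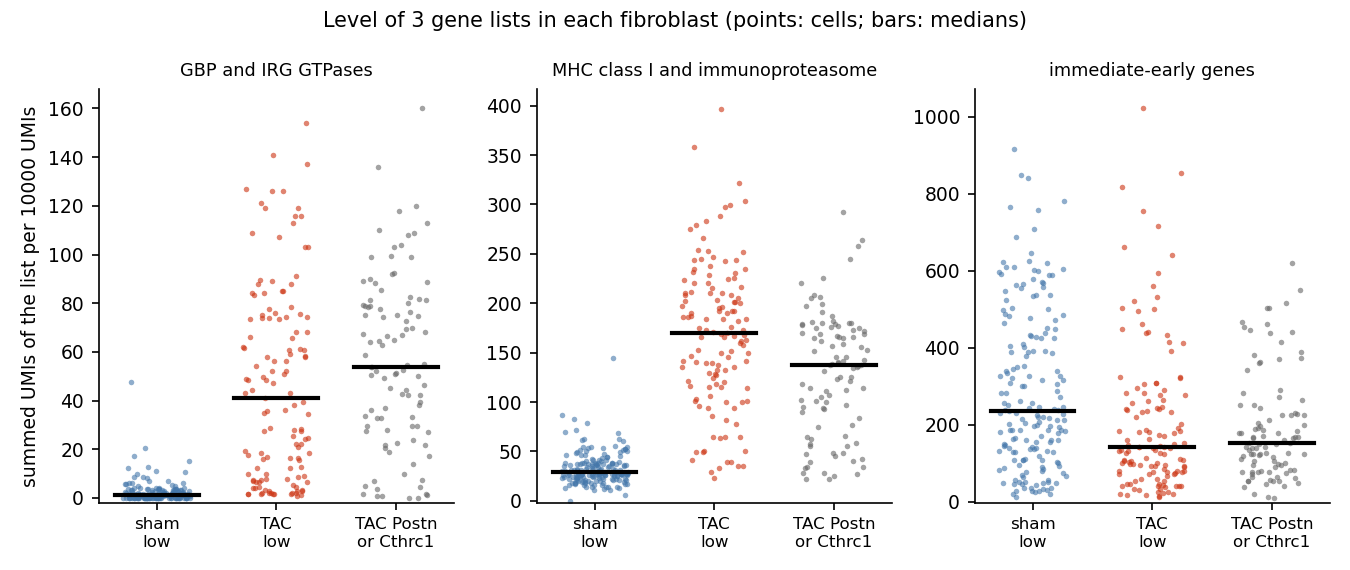
Each point is 1 fibroblast, with the summed UMIs of a gene list per 10000 UMIs on the y axis and bars at the medians, for sham cells low in Postn and Cthrc1 (179, blue), TAC cells low in them (129, red) and TAC cells with them (99, grey). The GBP and IRG and the class I lists lie higher in both TAC groups than in sham (medians 41.1 and 53.7 against 1.24, and 170 and 137 against 28.7), and the immediate-early genes overlap widely (medians 237, 142 and 154).

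The interferon lists were higher in other cells of the TAC library too. In C1q-rich cells the median log2 ratio of the GBP and IRG list was 3.86 and in cells with endothelial genes 3.31, beside 3.89 in the fibroblasts. For class I the medians were 1.77 and 1.84 beside 2.27, and for the antiviral genes 1.61 and 1.72 beside 1.97. These differences between cell types were not tested.

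RNA of neutrophil and macrophage markers was also higher in the TAC fibroblasts. Marker lists of other cells went both ways. Summed levels were 385 and 669 CPM for monocyte and dendritic cell markers, 335 and 247 for B cell markers, and 214 and 181 for pan-leukocyte markers. Most UMIs of the B cell list were Ebf1 (471 in sham and 393 in TAC), found in 83.8% and 85.3% of the fibroblasts. Cd79a had 19 and 1 UMIs. The monocyte and dendritic cell list was mostly Ace (480 and 485 UMIs, in 82.7% and 83.7% of cells) and Plac8 (75 and 568). Ccr2 had 28 and 3 UMIs. The B cell and monocyte sums cannot be read as RNA of those cells alone. S100a8 and S100a9, the main RNAs of neutrophils, went from 5.76 to 177 and from 7.68 to 254 CPM, and without mixed cells stood at 88.8 and 125 in TAC. Of 15 neutrophil markers 4 could be compared and 3 were higher, the summed level was 509 and 774 CPM, and 32.6 and 565 CPM without G0s2, which is also on the resting fibroblast list. Of these markers 9 were at 0 in sham and 2, Ly6g and Stfa1, in TAC. Retnlg had 0 UMIs in sham and 37 in 18 TAC cells, and Ngp 0 and 10 in 9 TAC cells. In TAC, 1 cell held 140 of 289 S100a8 UMIs, and 84 of 129 cells had at least 1. After thinning, S100a8 was seen in 1.12% and 23.4% of the fibroblasts and in 5.11% and 33.6% of C1q-rich cells. The source of this RNA was not tested. Of the macrophage markers 8 could be compared and 6 were higher, 3 of them the C1q genes of the rule, with summed levels of 737 and 927 CPM. The part of this RNA in the interferon lists was not tested. Igtp was seen after thinning in 1.12% of sham and 53.9% of TAC fibroblasts, beside 3.90% and 39.0% of C1q-rich cells.

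Chemokines went both ways. Of 16 compared, 8 were higher and 2 lower, and the median was 0.68. Ccl11 (eotaxin, which draws eosinophils; chr11:82057823-82062955, plus strand, GRCm38) had 211 UMIs in 25 sham cells and 13 UMIs in 3 TAC cells, or 135 and 7.95 CPM, 17.0-fold lower (9.72 to 32.4). In C1q-rich cells it was seen in 0.4% and 0% of cells without thinning. Ccl5 was lower too (49.3 and 19.0 CPM), but all its sham UMIs lay in 3 cells, and without mixed cells its log2 ratio was 2.43 in place of -1.36. Among the higher ones were Cxcl2, a neutrophil chemokine (71.0 and 480 CPM, with 76.1% of the TAC UMIs in 3 cells), and Cxcl14 (521 and 990 CPM in 51 and 69 cells). Ccl12 went from 4.48 to 28.7 CPM.

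Of 23 cytokine and acute-phase genes 12 were higher and 0 lower, with a median of 0.70. Cd274, which encodes the T cell inhibitory ligand PD-L1, had 2 UMIs in sham and 48.9 CPM in TAC (38.2-fold, 10.2 to 321), in 40 TAC cells. Nfkbiz (302 and 202 CPM), Il6 (100 and 76.4 CPM) and Hp (39.7 and 36.7 CPM) had the lowest ratios, all within 1.5-fold with all cells. Without mixed cells Hp was 1.65-fold lower. Serpina3n went from 151 to 924 CPM in 85 and 119 cells. Among the complement genes, which fibroblasts make in quantity, 4 of 10 were higher and 3 lower. C4b stood at 102 and 537 CPM (5.28-fold, 4.45 to 6.29), C1s1 at 212 and 608, C1ra at 204 and 504, and the inhibitor Serping1 at 1584 and 3064. C7, of the membrane attack complex, was lower (209 and 106 CPM). Cd59a and Clu were lower too, but without mixed cells their log2 ratios were -0.26 and -0.50 in place of -1.51 and -1.75.

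**Figure D4:**
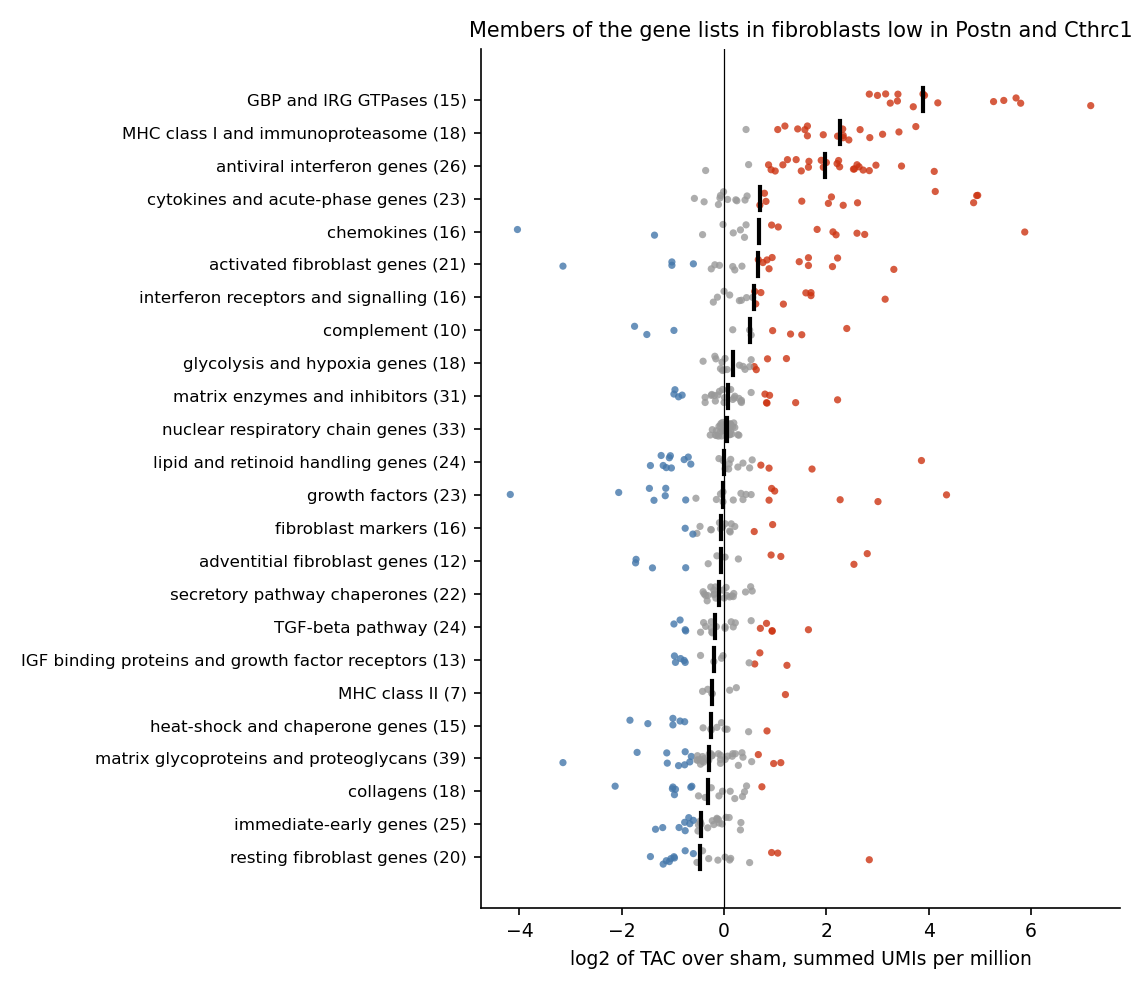
Each point is a gene of a list, placed by the log2 of its TAC over sham CPM in fibroblasts low in Postn and Cthrc1 (red at least 1.5-fold higher, blue at least 1.5-fold lower, grey between), with black bars at the medians and the number of genes compared after each name. The GBP and IRG, class I and antiviral lists lie to the right (medians 3.89, 2.27 and 1.97), the secretory and respiratory chain lists cluster at 0, and, among these lists of at least 6 genes compared, the resting and immediate-early ones lie lowest (-0.47 and -0.45).

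Genes of the resting cardiac fibroblast were more often lower than higher. Of 20 compared, 9 were lower and 3 higher, and the median was -0.47. Pdgfra stood at 379 and 224 CPM (1.69-fold lower, 1.48 to 1.93) and Gsn, the most abundant, at 20961 and 14562 (1.44-fold lower, 1.42 to 1.46). The lowest ratios were those of Ces1d, a carboxylesterase (85.1 and 31.2 CPM, 2.73-fold), G0s2, an inhibitor of fat breakdown (476 and 208 CPM, 2.28-fold), and the lipid transporter Abca8a (719 and 328 CPM, 2.19-fold). Against that direction, Apod, a lipid-binding secreted protein, went from 80.6 to 580 CPM (7.20-fold, 5.97 to 8.74) in 63 and 89 cells, Fmo2 from 265 to 549 CPM, and Cxcl14, given above, was also on this list. Tcf21, the transcription factor of the lineage, stood at 148 and 151 CPM.

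The adventitial fibroblast genes, known from the layer around vessels, were divided, with 4 of 12 higher and 4 lower. Ly6a (Sca-1) went from 631 to 4393 CPM (6.96-fold, 6.51 to 7.44) and Ly6c1 from 103 to 601 CPM. Pi16 stood at 598 and 1129 CPM and the microfibril protein Mfap5 at 837 and 1809. Dpp4 (29.4 and 11.0 CPM), Efhd1 (49.3 and 14.7 CPM) and the guidance factor Sema3c (53.1 and 15.9 CPM) were lower. Ly6a was seen after thinning in 50.6% and 93.0% of the fibroblasts, and in 3.70% and 55.2% of C1q-rich cells.

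Collagens were mostly lower or near level. Of 18 compared, 7 were lower and 1 higher, and the median was -0.31, and of -0.44 without the genes of the rule. Col1a1 (747 and 814 CPM) and Col3a1 are genes of the rule, and Col1a2, the second chain of type I collagen, was at 1454 and 1423. Col6a6, a chain of the pericellular type VI collagen (chr9:105687809-105828160, minus strand, GRCm38), went from 103 to 23.2 CPM (4.43-fold lower, 3.10 to 6.49), with UMIs in 86 and 23 cells. Col4a5 (56.9 and 28.1 CPM) and Col5a3 (248 and 123 CPM) were 2.02-fold and 2.01-fold lower. Col4a2, of basement membranes, was the gene past 1.5-fold in the other direction (238 and 397 CPM, 1.67-fold), with Col8a1 (239 and 325 CPM) and Col14a1 (136 and 179 CPM) next. With the fibroblasts above the Postn limit counted in, the collagen median turned to 0.60.

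Matrix glycoproteins and proteoglycans showed 9 lower and 3 higher of 39 compared. Efemp1 (fibulin 3) was at 158 and 48.3 CPM (3.27-fold lower, 2.53 to 4.27), elastin (Eln) at 209 and 96.0, and Mfap5, Mfap4 (153 and 243 CPM) and Omd (21.8 and 42.8 CPM) were higher. Fmod (29.4 and 3.06 CPM) rested on 3 sham cells with 95.7% of its UMIs. Of 31 matrix enzymes and inhibitors 6 were higher and 4 lower. Timp1, an inhibitor of metalloproteinases, went from 141 to 660 CPM (4.67-fold, 4.03 to 5.42), with close to 50% of the UMIs of both libraries in 3 cells each (50.2% and 48.5%). Its relative Timp3 went the other way (692 and 355 CPM), as did the proteases Htra1 (174 and 88.0 CPM) and Adamts5 (749 and 403 CPM). Mmp3 (stromelysin) stood at 103 and 271 CPM, and Mmp19 at 15.4 and 28.7.

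Although the rule kept Postn and Cthrc1 low, 11 of 21 activated fibroblast genes were higher in the TAC cells and 4 lower. The higher ones include Postn, a gene of the rule. Their median was 0.67 on the log2 scale, and 0.51 without the rule's genes. Postn itself, at 9.60 and 99.0 CPM, is bounded by the rule in both libraries. Timp1 and Comp, a cartilage matrix protein (80.6 and 352 CPM in 11 and 32 cells), followed. Next came the transcription factor Runx1, at 15.4 and 48.9 CPM. Ltbp2, of the latent TGF-beta binding protein family, came after it (25 and 78.9 CPM in 18 and 36 cells). The lowest ratio of the list was that of Fmod, which rested on few sham cells as given above. Tagln and Fap, a contractile and a protease gene of activated fibroblasts, both stood at 28.8 and 14.1 CPM. Tagln lay in 11 and 7 cells, and without mixed cells its log2 ratio was -2.70 in place of -1.02.

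Secreted growth factors and their receptors held several of the lowest ratios. Of 23 growth factor genes compared 7 were lower and 6 higher. Cytl1, a small secreted cytokine, went from 239 to 12.8 CPM (18.6-fold lower, 12 to 30.4), but 15 sham cells carried it, and 3 of them held 325 of 373 UMIs. Without mixed cells, which held 239 of those UMIs, it was at 93.5 and 8.95 CPM, 10.5-fold lower (6.02 to 19.6). Bmp2, a bone morphogenetic protein, was at 51.8 and 12.2 CPM in 39 and 15 cells (4.24-fold lower, 2.57 to 7.30), Igf1 at 367 and 166 CPM, and Enpp2 (autotaxin), which makes lysophosphatidic acid, at 187 and 67.9. Ereg, a ligand of the epidermal growth factor receptor, had 2 UMIs in sham and 32.4 CPM in TAC (25.3-fold, 6.67 to 215). Angptl4 went from 10.9 to 89.9 CPM, and Ptn (pleiotrophin) from 45.4 to 220. In TAC, 3 cells each held 60.4%, 45.6% and 41.4% of the UMIs of Ereg, Angptl4 and Ptn. Without each gene's 3 highest cells, 2 of 20 growth factor genes compared were higher and 8 lower. Of 13 IGF binding proteins and growth factor receptors 5 were lower and 3 higher. Insr (24.3 and 12.2 CPM), Igf1r (88.9 and 45.8 CPM) and Pdgfrb (94.7 and 52.6 CPM) were lower together with Pdgfra. Igfbp5 (155 and 364 CPM), Pdgfrl (56.3 and 91.7 CPM) and Igfbp6 (462 and 700 CPM) were higher. Of Igfbp5 UMIs, 81.1% and 78.9% were in 3 cells, and without mixed cells its log2 ratio was 3.66 in place of 1.23. Igfbp6 was at 0.55 without them.

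In the TGF-beta pathway, the main driver of scar matrix, 5 of 24 genes were higher and 4 lower. Ctgf (connective tissue growth factor) stood at 317 and 609 CPM and Nbl1 at 90.2 and 174, while the ligand Tgfb2 (71.7 and 36.1 CPM), Smad3 (31.3 and 17.1 CPM) and the inhibitor Smad7 (119 and 70.3 CPM) were lower.

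Immediate-early genes, switched on within minutes of a stimulus and also by tissue digestion, were lower or level. Of 25 compared, 8 were lower and 0 higher, and the median was -0.45. Egr3 (53.1 and 20.8 CPM), Egr2 (55.0 and 23.8 CPM) and Fosb (1634 and 889 CPM, 1.84-fold lower, 1.72 to 1.96) had the lowest ratios. Per cell, the list summed to a median of 237 per 10000 in sham and 142 in TAC, and 42 of 129 TAC cells were above the sham median. In C1q-rich cells 20 of 26 were lower (median -0.84), where 2603 of all 12517 genes compared were lower (median -0.10). Of 15 heat-shock and chaperone genes 6 were lower and 1 higher. Hspa1a, an inducible HSP70, stood at 801 and 224 CPM (3.58-fold lower, 3.18 to 4.03), its near-identical copy Hspa1b at 591 and 211, Dnajb1 at 594 and 296, and Hspb8, the exception, at 22.4 and 40.3. The median mitochondrial share, 7.68% in sham and 3.78% in TAC, moved with these lists, and its part in them was not tested. Under a mitochondrial limit of 5% only 7 sham cells were left, beside 99 TAC cells.

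Lipid and retinoid genes were divided: 10 of 24 were lower and 4 higher. Without mixed cells 7 of 23 were lower and 5 higher. Apoe, the lipid carrier, went from 4784 to 2038 CPM (2.35-fold lower, 2.25 to 2.45) with a UMI in 175 and 125 cells, and lipoprotein lipase (Lpl) from 972 to 462. Scd2, a fatty acid desaturase outside this list, stood at 109 and 32.4 CPM (3.38-fold lower, 2.47 to 4.69). The highest ratios were those of Aldh1a3, which makes retinoic acid (3.20 and 50.7 CPM, with 96.4% of the TAC UMIs in 3 cells), Adh1 (8.32 and 28.1 CPM) and Cyp1b1 (56.3 and 104 CPM). Mixed cells held 5 of 13 sham and 1 of 46 TAC UMIs of Adh1. Of 18 glycolysis and hypoxia genes 4 were higher, led by Bnip3 (13.4 and 31.8 CPM). None of 33 nuclear respiratory chain genes and none of 22 secretory pathway chaperones was past 1.5-fold, with medians of 0.05 and -0.09, counts of 0 that are ratios between 2 libraries and not a test. Of 28 cell cycle genes 1 had enough UMIs to be compared, and the summed level of the list was 93.4 and 91.1 CPM.

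The remaining low ratios rested largely on mixed cells. Of 86 Ptprb UMIs in sham, 82 were in the 15 mixed cells, Ptprb being a phosphatase of endothelial cells, and without them its 4 and 7 UMIs gave a log2 ratio of 0.61 in place of -3.11. Cgnl1 (62.7 and 12.8 CPM), Cpe (65.9 and 15.9 CPM) and Clu had 72 of 98, 79 of 103 and 71 of 88 sham UMIs in mixed cells, and their log2 ratios without them were -1.21, -1.10 and -0.50 in place of -2.26, -2.03 and -1.75. Of 14 endothelial markers, 8 could be compared and 6 were lower (summed level 759 and 931 CPM, with Ly6c1 at 103 and 601). Without mixed cells 3 could be compared, with 1 higher and 0 lower. Their median log2 ratio was 0.32, in place of -0.96 with all cells. Npr3, the natriuretic peptide clearance receptor, had all 72 of its sham UMIs in mixed cells (46.1 and 4.28 CPM). The T and NK cell markers with enough UMIs, Gzma and Ccl5, were both lower. Pdlim3, a cytoskeletal protein, kept its ratio (72.9 and 22 CPM, log2 -1.72 with and -1.70 without mixed cells). By the same rule without mixed cells, the lowest genes also included Cdon (51.6 and 10.2 CPM in 48 and 15 cells), S1pr3, a sphingosine phosphate receptor (78.2 and 21.7 CPM), and Phlda1 (329 and 91.4 CPM), which were chosen after their values were seen.

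Within the TAC library the low fibroblasts could be set beside the 99 with Postn or Cthrc1. These are the same TAC cells as in the comparison with sham, and genes that go with Postn were bound to differ by the choice of cells, so the values are a description. Of 6756 genes, 526 (7.79%) were at least 1.5-fold higher in the cells with Postn or Cthrc1 and 624 (9.24%) lower. Of 20 resting genes 17 were lower in them than in the low cells, with a median log2 ratio of -1.46. Gsn stood at 20961 CPM in sham low, 14562 in TAC low and 5087 in TAC Postn or Cthrc1 cells, Pdgfra at 379, 224 and 127, and Lpl at 972, 462 and 136. On these genes the TAC low cells lay between the others.

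Several complement genes and a few others did not follow that order. C3, the central complement protein, stood at 1661 CPM in sham low, 2403 in TAC low and 863 in TAC Postn or Cthrc1 cells, C4b at 102, 537 and 237, and C1s1 at 212, 608 and 290. Of 11 complement genes 6 were lower in the Postn or Cthrc1 cells than in the low ones. Apod was at 80.6, 580 and 268 CPM, Fmo2 at 265, 549 and 157, and Cxcl14 at 521, 990 and 294. These genes were highest in the TAC low cells.

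Among genes with the largest ratios between these TAC cells, Penk, a precursor of opioid peptides, had 101 UMIs in the low cells and 0 in the others, at least 44.9-fold lower against a floor of 3 UMIs. In sham it was at 138 CPM in 84 cells. Inmt, a methyltransferase, stood at 135 CPM in sham low, 89.3 in TAC low and 2.75 in the others. Thbs4, a thrombospondin, was at 8.56 CPM in the TAC low cells and 1069 in the others (125-fold, 74.3 to 229), and Cilp, a matrix protein, at 163 and 1574 (9.64-fold, 8.51 to 11.0). Igfbp3 was at 77.6 and 0.917 CPM, with 86.6% of the low cells' UMIs in 3 cells, and Saa3 at 86.2 and 5.04 CPM, with 95% in 3 cells. Of 26 activated genes 25 were higher in the Postn or Cthrc1 cells, and 12 of 20 collagens. The interferon lists were close: 3 of 17 GBP and IRG genes were higher (median 0.29), 0 of 27 antiviral genes were higher (median -0.02) and 2 were lower, and 2 of 19 class I genes were lower (median -0.15).

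**Figure D5:**
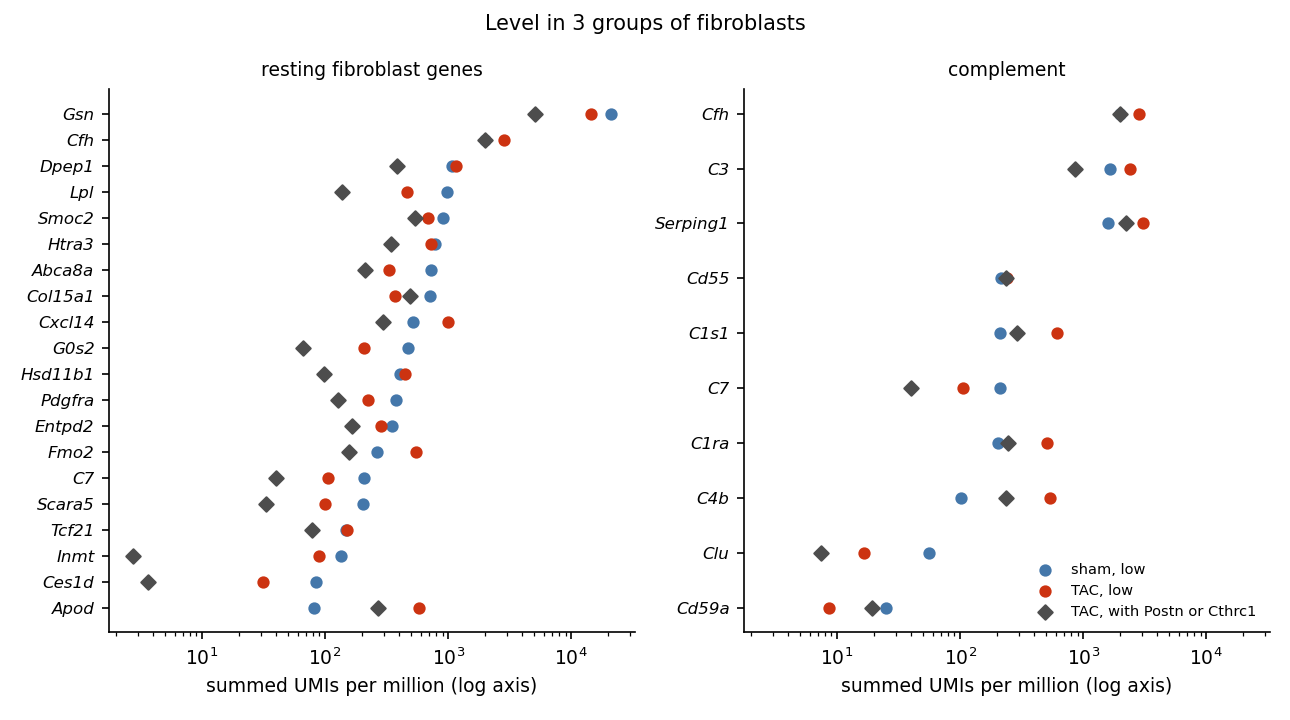
CPM (log axis) of the resting fibroblast genes (left) and the complement genes (right) in sham cells low in Postn and Cthrc1 (blue), TAC cells low in them (red) and TAC cells with them (dark diamonds). Most resting genes are lowest at the diamonds, as Gsn is (20961, 14562 and 5087), while C4b, C1s1 and C3 are highest at the red points.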

How the data were processed

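Single cells of the CD45+ sort were measured by droplet RNA sequencing in 1 sham and 1 TAC library. The deposited matrices hold raw counts (UMIs per gene and barcode, 31053 features, no normalization), made by the authors. The submitters' processing notes name Cell Ranger 3.0 and the build mm10. For the calling of cells among barcodes, the method was not given in the sources used here. Labels speak of several GEM wells, but barcodes carry 1 suffix, so runs could not be separated.

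Kept cells were 4169 of 11941 sham and 5601 of 7975 TAC barcodes, and the gated cells had medians of 8437 and 12073 UMIs. UMIs were summed over the gated cells per library and scaled to CPM. Ratios carry 95% exact intervals (Clopper-Pearson on the share of a gene's UMIs in TAC), and log2 ratios have 0.5 UMI added to each count. These intervals assume independent UMIs. A fold against 0 UMIs uses a floor of 3. For shares of cells with a UMI, cells were thinned to 2000 UMIs (1 gated cell left out per library), beside 1000 C1q-rich cells per library. C1q-rich cells had C1q over 20 and collagen under 20 per 10000. Cells with endothelial genes had Pecam1, Cdh5 and Kdr of at least 5. Cells were called mixed at Pecam1, Cdh5 and Kdr of at least 5, or at 10 for small sets of genes of endocardial, red, neutrophil, T, B and cardiac muscle cells. The ratio code was tested on simulated data. Gene positions are GENCODE vM21 (GRCm38). The tools were scipy 1.17.1 and numpy 2.4.6 for intervals, pandas 2.3.3 for tables and matplotlib 3.10.9 for plots, under Python 3.11.15.

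Named genes are the 12 highest and 12 lowest ratios among genes reaching 50 CPM in 1 of the libraries and 50 UMIs in all, without markers of other cells, predicted genes, sex-linked genes, antigen receptor segments, haemoglobins and ribosomal or mitochondrial genes, and up to 3 members at each end of the lists described. Other genes named were chosen after their values were seen. The members and lists were chosen with earlier results of these data known. Alternatives changed the limits of the rule, depth, scaling and UMI minimum. A result for a withheld item is not reported here.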

Additional observations from a re-analysis of the deposited data

Results flagged for a closer look

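The gated cells leave out fibroblasts with more mitochondrial RNA. Among barcodes that met the rest of the rule at over 10 and up to 25% mitochondrial UMIs, 91 in sham and 7 in TAC, the GBP and IRG list had a median log2 ratio of 5.48, a signal in cells outside the main comparison. Only 2 of its genes had enough UMIs to be compared there, and the 7 TAC cells held 24961 UMIs.

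Cpe, which encodes a carboxypeptidase that trims peptide hormones, had a log2 ratio of -2.03 in the fibroblasts and of 1.06 in C1q-rich cells. Clu (clusterin) had -1.75 in the fibroblasts and 1.13 in C1q-rich cells. The opposite directions were not tested, with 1 library per group, and most of the sham fibroblast UMIs of both genes were in mixed cells.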

How the results depend on the processing

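No paired analysis was possible because each group is 1 library and the labels give no replicate numbers. Of 131 alternative values of the main results 112 stayed within their margins. The share's log2 ratio of -0.90 became -0.54 at a mitochondrial limit of 25%, -1.25 with Postn and Cthrc1 under 2 and -0.16 without that limit. The 576 higher and 752 lower genes became 213 and 203 with cells thinned to 2000 UMIs (fewer genes compared), 945 and 1486 at 20 UMIs, 2526 and 3511 without a minimum, and 243 and 210 at a fold of 2. Without the Postn limit 1139 were lower and the collagen median was 0.60. At a mitochondrial limit of 5%, which leaves 7 sham cells, 1086 were higher, 568 lower and the immediate-early median was -0.75. In the cells at 10 to 25% mitochondrial UMIs, with 7 TAC cells, 233 were higher and 514 lower, and the medians were 5.48 for the GBP and IRG list, -1.40 for immediate-early genes and -1.15 for collagens. The higher genes were 43.4% of all calls, 65.7% at the 5% limit, 53.6% at a fold of 2 and 31.2% at 10 to 25%.

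Of 534 alternative values of the list medians 54 had the other sign, in 15 of 27 lists. The class II median changed sign in 10 of 20 alternatives, growth factors in 12, adventitial genes in 8 and collagens in 1. Of 2548 alternative log2 ratios of single genes 85 had the other sign. Main values past 1.5-fold turned direction in 17 of these and for 2 list medians. At the 5% limit these were the activated fibroblast list (-0.15), C1qa (-0.06), Timp1 (-0.15), Efemp1 (2.85), Ctgf (-1.16), Ltbp2 (-0.19), Dkk3 (-1.14), Igfbp6 (-0.00) and Hspb8 (-0.09). Without the Postn limit they were Fmod (0.63) and Tagln (2.67). At 10 to 25% they were the chemokine list (-0.73), Hspa1a (0.36), C1qb (-0.10), Cxcl14 (-5.05), Ptn (-1.49), Smad7 (1.35), Igfbp6 (-0.19) and Pdgfrl (-2.49). The cause was not tested beyond the cell numbers given. Genes under 50 UMIs over both libraries in a setting were not compared there, 92 of 167 at 10 to 25%, 77 in thinned cells, 34 at the 5% limit, 23 without the 3 highest cells and 9 without mixed cells. This minimum for alternatives was added after reversals had been seen, and it leaves out reversals such as those of Ptprb and Ccl5 without mixed cells, and Npr3, left with 0 and 2 UMIs there. The mixed cells, the 3 highest cells per gene and the cells at 10 to 25% were alternatives chosen after seeing the data. Depth limits genes under about 50 UMIs, and the cells of 6 mice per group give no spread between animals.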
